A study of Mus musculus with 6 samples.

Results

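Sugar, lactate, ion and mitochondrial carrier genes were followed in RNA of mature mouse sperm and of testes. They were chosen by name as the genes of the solute carrier families Slc2, Slc4, Slc5, Slc8, Slc9, Slc16, Slc25 and Slc26 with at least 1 RefSeq mRNA transcript in the expression tables. This gave 95 genes of the 14455 with such a transcript. Of these 95, 92 encode carriers, and the other 3 (Slc4a1ap, Slc9a3r1 and Slc9a3r2) share the name of a family but encode adaptor or interacting proteins. By family there were 11 Slc2, 8 Slc5, 12 Slc16, 9 Slc4, 9 Slc26, 2 Slc8, 10 Slc9 and 34 Slc25 genes. Each sperm sample was a pool from several untreated C57BL/6 mice aged 3 to 5 months per the labels, released from the caudal epididymis and vas deferens and cleared of somatic cells by lysis. The study's methods give the substrain as C57BL/6J and a younger range of ages than the labels. The 2 testes samples were made from the testes of these mice and held every cell type of that organ. Nothing was deleted, added or treated in either group. Of the 4 sperm samples, the study left out replicate 1 because it correlated poorly with the others, so the comparison is of replicates 2, 3 and 4 with both testes samples, and replicate 1 is given beside them.

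Spermatozoa make ATP by glycolysis along the flagellum and by respiration in the midpiece mitochondria, and both need substrates that enter through carriers. Facilitative glucose transporters (Slc2) and sodium-coupled sugar transporters (Slc5) bring in hexoses, while monocarboxylate transporters (Slc16) move lactate and pyruvate. Bicarbonate and chloride exchangers (Slc4, Slc26) and sodium/proton and sodium/calcium exchangers (Slc9, Slc8) set the internal pH and calcium on which motility and capacitation depend. The Slc25 carriers move metabolites and nucleotides across the inner mitochondrial membrane. Mature sperm make almost no new RNA, so the transcripts in them are generally regarded as remains of those made during spermatogenesis.

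Estimated counts in mRNA transcripts summed to 42390, 100027, 33511 and 54337 in sperm replicates 1 to 4 and to 322625 and 314273 in testes replicates 1 and 2. Levels below are counts per 1000000 of these mRNA counts (ppm). A count of 3, taken as the floor of detection, was worth 30.0 to 89.5 ppm in the 4 sperm samples and 9.30 to 9.55 ppm in the testes. Marker genes were looked up to check the labels. Haploid germ cell markers (6 of 6 in the tables) summed to 1492 to 2503 ppm in the 3 sperm samples compared, against 1860 to 2512 ppm in testes, most of it Prm2, a protamine gene, in sperm, while Odf1 was at 0 in sperm. Of the 5 tested, Prm1 and Tnp1 were called lower in sperm (log2 fold changes -4.13 and -4.83, edgeR adjusted p 0.0214 and 0.0225), and the median log2 fold change was -3.60. All 3 meiotic markers (Sycp1, Sycp3, Spo11) were at 0 in sperm and summed to 55.8 to 82.7 ppm in testes. Of 6 Sertoli cell markers 5 were in the tables, and they summed to 0 to 10.0 ppm in sperm, with Wt1 and Amh at 0, and 36.3 to 37.2 ppm in testes. Leydig cell markers (5 of 6 in the tables) summed to 110 to 1194 ppm in sperm, nearly all of it Star, with Insl3 and Hsd3b1 at 0, and 535 to 580 ppm in testes. Epididymal and epithelial markers (2 of 6 in the tables) summed to 0 to 92.0 ppm in sperm, all from Adam7 in replicate 4, with Crisp1, Lcn5 and Cdh1 at 0, and leukocyte and blood markers (3 of 6) to 0 to 20.0 ppm, all from Cd4 in replicate 2, with Ptprc at 0; in testes they summed to 3.10 to 38.2 and 22.3 to 40.3 ppm.

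Promoter sequence, 250 bases before to 50 bases after an annotated start (RefSeq, GRCm38.p6), was at hand for 71 of the 95 genes, as 84 promoters. The promoters of 4 genes on which the comparison turned are printed 5′ to 3′ on the strand of the gene. They are Slc2a9, with the highest mean level of the 95 in sperm replicates 2 to 4, and Slc16a3, the most abundant in testes. The others are the sodium/proton exchanger genes Slc9a5 and Slc9b1, which were lower in sperm replicates 2 to 4. Capitals mark GC boxes (GGGCGG or, on the other strand, CCGCCC), the core TGACG of the cAMP response element (CGTCA on the other strand) and TATA boxes (TATAAA or TTTATA).
Slc2a9, chr5:38483336-38483635, minus strand: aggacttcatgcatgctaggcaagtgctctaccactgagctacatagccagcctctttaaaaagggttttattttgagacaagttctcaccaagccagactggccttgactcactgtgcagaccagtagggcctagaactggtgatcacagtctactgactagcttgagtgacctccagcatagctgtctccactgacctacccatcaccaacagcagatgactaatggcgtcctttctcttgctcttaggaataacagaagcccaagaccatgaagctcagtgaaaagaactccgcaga
Slc16a3, chr11:120948817-120949116, plus strand: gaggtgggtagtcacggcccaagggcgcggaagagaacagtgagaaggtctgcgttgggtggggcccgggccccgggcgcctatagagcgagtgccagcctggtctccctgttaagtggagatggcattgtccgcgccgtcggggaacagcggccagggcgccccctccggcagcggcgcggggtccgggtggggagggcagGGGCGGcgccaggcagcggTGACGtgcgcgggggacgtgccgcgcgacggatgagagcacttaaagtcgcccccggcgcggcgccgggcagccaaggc
Slc9a5, chr8:105348008-105348307, plus strand: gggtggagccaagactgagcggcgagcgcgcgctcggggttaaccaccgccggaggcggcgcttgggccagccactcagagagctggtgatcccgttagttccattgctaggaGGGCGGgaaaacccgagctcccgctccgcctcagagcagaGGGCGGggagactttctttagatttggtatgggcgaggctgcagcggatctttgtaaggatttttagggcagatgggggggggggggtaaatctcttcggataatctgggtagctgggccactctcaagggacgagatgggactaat
Slc9b1, chr3:135347779-135348078, plus strand: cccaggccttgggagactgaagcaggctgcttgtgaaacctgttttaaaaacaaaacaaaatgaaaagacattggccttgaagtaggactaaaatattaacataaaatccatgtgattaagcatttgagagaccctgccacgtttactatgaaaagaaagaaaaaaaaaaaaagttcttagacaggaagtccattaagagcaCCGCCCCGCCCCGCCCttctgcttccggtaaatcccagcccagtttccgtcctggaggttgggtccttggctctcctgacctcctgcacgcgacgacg
The Slc2a9 stretch held none of the 3 motifs, had 2 CpG dinucleotides and was 48.3% G or C. It belongs to a start inside the annotated span of that gene, which reaches to 38503147. Whether the transcript that holds most Slc2a9 counts begins there was not examined. The Slc16a3 stretch was the richest of the 4 in G and C, at 73.3% with 36 CpG, and held 1 GC box and 1 TGACG. That of Slc9a5 held 2 separate GC boxes at 60.7% G or C with 20 CpG. In Slc9b1, 3 GC boxes on the other strand overlapped in 1 run within a stretch of 46.3% G or C. Among the 84 promoters 64.3% held a GC box, against 55.3% of the 13828 promoters of genes in the expression tables and 35.7% of all 32851 promoters. TGACG stood in 14.3% of the 84 promoters and in 27.5% and 20.8% of those sets. TATAAA stood in 14.3%, against 8.53% and 13.6%. Their median G and C content was 59.7%, against 59.3% for genes in the tables.

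As a set, the carrier transcripts took a smaller share of mRNA counts in sperm than in testes. Fewer of them were listed in sperm, to about the extent seen for all genes. The 95 genes together held 0.411%, 0.579% and 0.391% of mRNA counts in sperm replicates 2, 3 and 4 (mean 0.460% ± 0.103, SD, n = 3) and 0.638% and 0.588% in testes (0.613% ± 0.0359, SD, n = 2). In sperm replicate 1 the share was 0.366%. Values of the groups did not overlap. Replicates 2, 3 and 4 listed 47, 13 and 25 of the 95 genes above 0 and replicate 1 listed 11. Both testes samples listed more, 82 and 75. As shares these were 49.5%, 13.7% and 26.3% in sperm and 86.3% and 78.9% in testes, close to the 46.6%, 10.7% and 22.9% and the 84.7% and 79.8% of all 14455 genes. These means of 28.3 and 78.5 gave p = 0.2 in an exact permutation test, with the tail probability doubled to cover both sides. With 3 against 2 samples this is the smallest p that such a test allows. Thinned to the same 33512 mRNA counts, 31.3, 13 and 22.7 genes were expected in sperm replicates 2, 3 and 4 and 42.5 and 34.7 in testes (exact permutation p = 0.2), so the gap was narrower than in the full tables. All genes thinned in this way gave 32.1%, 10.7% and 21.4% in sperm and 41.3% and 37.5% in testes, against 33.0%, 13.7% and 23.9% and 44.7% and 36.5% of the 95. Thinning treats estimated counts as single molecules and matches the mRNA total only. In all of sperm replicates 2, 3 and 4, 7 genes were listed (7.37%, against 7.46% of all genes), and 65 were listed in both testes samples (68.4%, the same share as of all genes). In 40 genes all 4 sperm samples were at 0 (42.1%, against 47.9% of all genes). In 34 of these 40, the testes level lay at or under 15.97 ppm, the value of 3 counts in the pooled sperm, so a difference could not be seen at this depth. For the others the pooled testes level exceeded that value, by at most 1.97 times.

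A few genes held most of the counts, and they were not the same in sperm and testes. In sperm Slc2a9 made up 26.3%, 37.1% and 26.4% of all carrier counts in replicates 2, 3 and 4, and 18.7% in replicate 1. In replicate 1 Slc9b1 held more, at 20.6%. In testes Slc2a9 made up 3.25% and 0.975%, below every sperm sample. By FPKM, which allows for transcript length, the order in sperm began with Slc2a9 (42.0 ± 16.3, SD, n = 3), Slc16a3 (30.7 ± 7.24) and Slc5a2 (16.4 ± 9.29), neighbours whose ranges of mean ± SD overlapped. In testes it began with Slc16a3 (60.2 ± 9.97, SD, n = 2), Slc9b1 (43.3 ± 6.63), Slc25a21 (24.6 ± 5.40) and Slc9a5 (23.5 ± 2.40), and the last 2 of these lay within their spread.

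**Figure D1:**
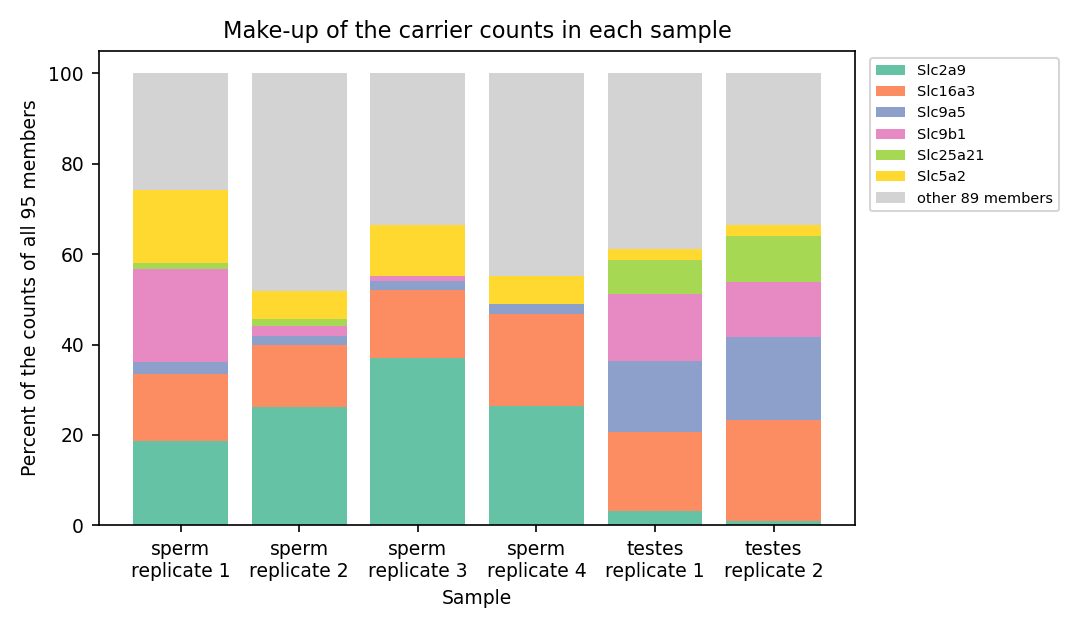
Stacked bars give, for each of the 6 samples, the percent of the counts of all 95 genes held by 6 genes and by the other 89 together. Slc2a9 fills 18.7 to 37.1% of the sperm bars and 0.975 to 3.25% of the testes bars. Slc9a5, Slc9b1 and Slc25a21 are wide in the testes bars, and Slc9b1 also fills 20.6% of the bar of sperm replicate 1.

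The families differed in direction. Slc2 and Slc5 took a larger share of mRNA counts in sperm, Slc16, Slc9 and Slc25 a smaller one, and in Slc4 and Slc26 the groups overlapped. Slc2 genes summed to 1130, 2178 and 1067 ppm in sperm replicates 2, 3 and 4 and to 592 and 321 ppm in testes, a ratio of means of 3.19. Slc5 genes summed to 400, 657 and 405 ppm against 223 and 178 ppm (ratio 2.43). The sums of these 2 families were thus higher in each sperm sample than in either testes sample. Replicate 1, at 684 and 755 ppm, lay above the testes too. This does not hold for sugar carriers as a class. The Slc2 sum rested on Slc2a9 (ratio 0.120 without it), and Slc5 includes carriers of other substrates, such as Slc5a8. Slc16 genes summed to 770, 1134 and 883 ppm in sperm against 1606 and 1747 ppm in testes (ratio 0.554). Slc9 genes showed the widest gap, with 670, 567 and 221 ppm against 2405 and 2167 ppm (ratio 0.213), but replicate 1 held 1392 ppm, between the groups. Slc25 genes summed to 881, 298 and 1108 ppm against 1144 and 1192 ppm (ratio 0.653), so replicate 4 came close to the testes, and replicate 1 held 47.2 ppm. Slc4 genes summed to 80.0, 269 and 55.2 ppm against 205 and 169 ppm, and Slc26 genes to 180, 686 and 166 ppm against 177 and 98.6 ppm, with replicate 1 at 0 for both. Sperm replicate 3 set both of these means. Without it the sperm to testes ratio of Slc4 was 0.362 in place of 0.721 and that of Slc26 was 1.26 in place of 2.50. No test was run on family sums.

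**Figure D2:**
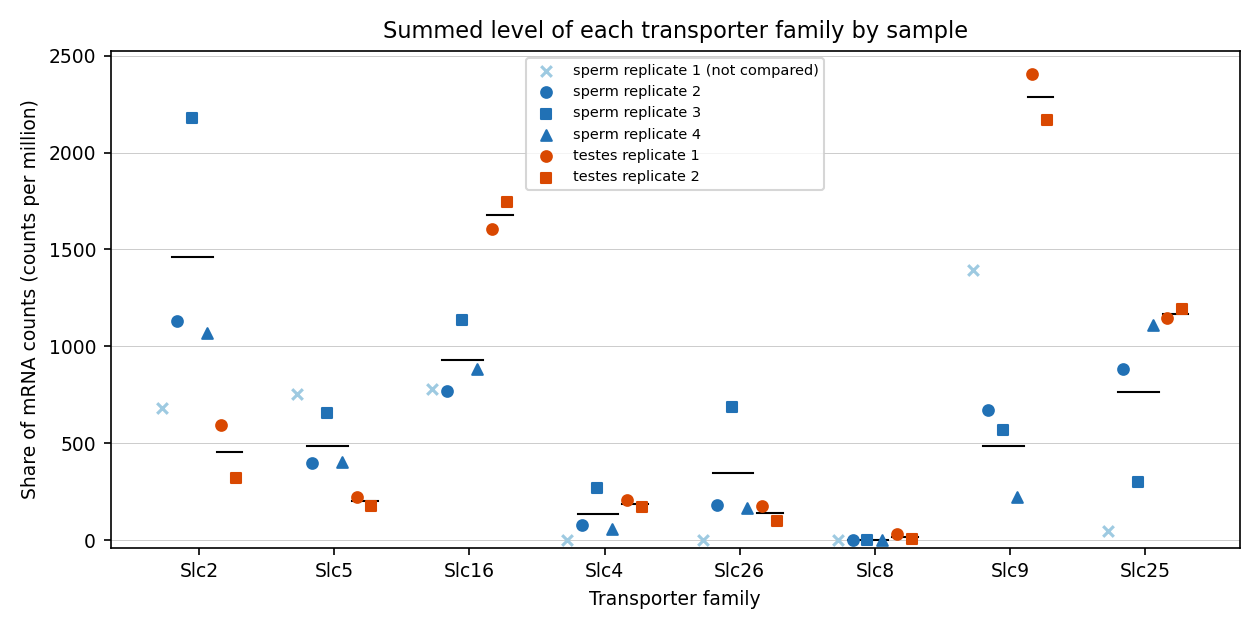
Points give the summed level of each family (ppm, linear axis) in each sample, and black lines the mean of sperm replicates 2 to 4 and of the 2 testes samples. Sperm points lie above the testes for Slc2 and Slc5 and below them for Slc16, Slc9 and Slc25, with replicate 1 drawn as a cross.

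Single members decided several of these sums. Without Slc2a9, the Slc2 ratio fell from 3.19 to 0.120. In sperm Slc2a9 held 97.3% of the Slc2 counts and in testes 29.0%. The Slc26 ratio fell from 2.50 to 0.360 without its largest gene and the Slc25 ratio rose from 0.653 to 1.18 without Slc25a21, so that both crossed 1. Without their largest genes the Slc4 ratio was 0.244 and the Slc16 ratio 0.407. Slc5 without Slc5a2 had a ratio of 1.98, but on 15, 0 and 9 counts in sperm replicates 2, 3 and 4 and 22 and 12 in testes, so that the groups then overlapped.

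In the fit over all genes, edgeR's quasi-likelihood test was run on the 4628 genes with 20 or more counts over the 5 samples, among them 32 of the 95. Calls needed a more than 2-fold difference and a p, adjusted by Benjamini-Hochberg over these genes, under 0.05. Of the 32 tested, 2 were called higher in sperm, Slc2a9 and Slc26a1 (6.25%, against 6.70% of all genes tested). Another 5 were called lower, Slc9a5, Slc9b1, Slc25a21, Slc2a5 and Slc4a8 (15.6%, against 20.8% of all genes). Both shares lay near those of all genes. Of the 5, Slc2a5 and Slc4a8 had no sperm count and reached the count minimum only through the testes, so their calls rest on that minimum. In 5 genes every sperm value lay above both testes values (15.6%, against 10.9% of all genes), and in 16 every sperm value lay below (16 of 32, against 44.2% of all genes). The median log2 fold change of sperm over testes was -1.37 for the 32 and -1.03 for all 4628 genes, and for all genes it was -0.16 under the filterByExpr filter. The minimum of 20 counts is reached mostly through the deeper testes samples, and 687 of the 4628 genes were at 0 in sperm. With genes at 0 in a group set at their bound of 3 counts in the pooled group, the medians of the 32 and of all 4628 genes were -1.13 and -0.98. The 32 passed the filter largely through their testes counts, and the 63 below it are described by their values only. Replicates are separate pools, and a p-value here measures the spread between such pools. In RNA of a whole organ, fewer cells of a type and less RNA per cell cannot be told apart.

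**Figure D3:**
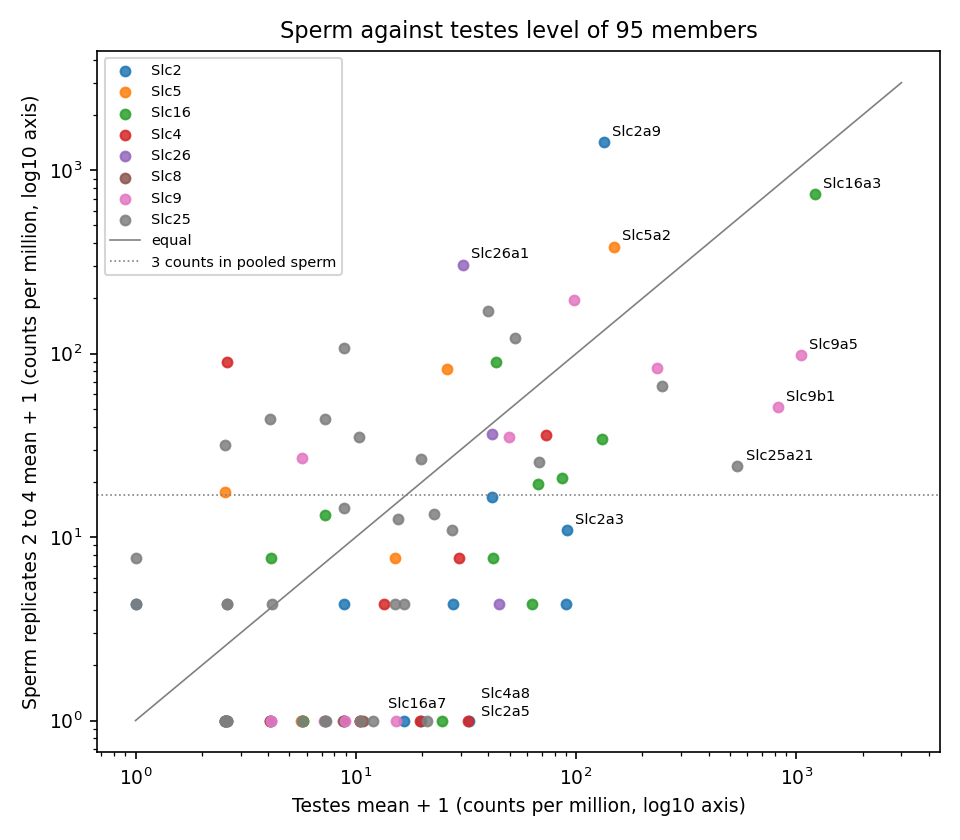
Each point is 1 of the 95 genes, with its mean level in testes (horizontal) and in sperm replicates 2 to 4 (vertical), in ppm plus 1 on log10 axes and coloured by family. The row at the bottom holds the 40 genes at 0 in sperm, the grey line marks equal levels and the dotted line the value of 3 counts in pooled sperm.

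Among the hexose carriers, Slc2a9 (chromosome 5, 38349272 to 38503147, GRCm38.p6) stood out. It encodes GLUT9, a transporter of urate and, to a lesser degree, of hexoses. Its level was 1080, 2149 and 1031 ppm in sperm replicates 2, 3 and 4, 684 ppm in replicate 1, and 208 and 57.3 ppm in testes. All 4 sperm samples lay above both testes samples, and the 95% Wilson interval of the lowest sperm value, 476 to 982 ppm in replicate 1, did not reach that of testes replicate 1, 164 to 264 ppm. These intervals cover counting error only, since copies made by PCR are not separate molecules. The log2 fold change was 3.40 (SE 0.70), with an edgeR adjusted p of 4.84e-05. With TMM scaling it was 2.71, with an edgeR adjusted p of 0.0546, just past the threshold. It was 2.37 in DESeq2 (adjusted p 0.0341) and 4.60 without testes replicate 1 (edgeR adjusted p 1.61e-04), the testes sample with more Slc2a9. Nearly all its counts were given to the 3276-base transcript of the pair listed. In the annotation its span overlaps that of the lncRNA Gm40290, for which no value is given here.

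The other Slc2 genes were sparse in sperm. Slc2a3, which encodes GLUT3, a high-affinity glucose transporter known from the sperm plasma membrane, had 1 count in sperm replicate 3 and none in replicates 1, 2 and 4, against 22 and 35 counts in testes (68.2 and 111 ppm). Its log2 fold change was -3.72 (SE 1.83), and the edgeR adjusted p of 0.114 missed the threshold. It was below 0.05 in DESeq2 (adjusted p 0.0321), in limma on log2(FPKM + 1) (adjusted p 0.0345) and in edgeR without sperm replicate 3, which held its only sperm count (adjusted p 0.0154). In the other edgeR and limma alternatives that kept both testes samples and gave a value, the adjusted p was 0.0866 to 0.648. Slc2a5, the fructose transporter GLUT5, had no count in any sperm sample and 8 and 12 counts in testes (24.8 and 38.2 ppm). Its pooled testes level was 1.97 times the floor of 3 counts in the 3 pooled sperm samples (15.97 ppm), under the 2-fold that a call needs. That ratio leaves out counting error in testes. The Wilson intervals of the testes values began at 12.6 and 21.8 ppm in replicates 1 and 2, on either side of the floor. The edgeR adjusted p of Slc2a5 was 0.0242. Leaving out sperm replicate 2, 3 or 4 ended that call, with edgeR adjusted p of 0.120, 0.0697 and 0.0763. Slc2a4, encoding the insulin-regulated GLUT4, had a single sperm count, in replicate 2, against 37 and 20 in testes (edgeR adjusted p 0.0840). Slc2a8 (GLUT8) had 0, 1, 0 and 2 counts in sperm replicates 1 to 4, beside 21 and 5 in testes (edgeR adjusted p 0.463), and Slc2a1 (GLUT1) had 1 count in sperm replicate 2 and 2 and 3 in testes. Slc2a10 was seen only as 1 count in sperm replicate 2.

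Of the sodium-coupled carriers, Slc5a2 (chromosome 7, 128265683 to 128272430) led in both groups. It encodes SGLT2, best known for glucose uptake in the kidney. Its level was 250, 656 and 239 ppm in sperm replicates 2, 3 and 4, 590 ppm in replicate 1 and 155 and 140 ppm in testes. All sperm values were above the testes, but the log2 fold change of 1.34 (SE 0.98) did not pass the test (edgeR adjusted p 0.309). Its span overlaps that of Rusf1, which had 4 counts in sperm replicate 2 alone among the sperm samples and 6 and 4 in testes. Slc5a8, a sodium-coupled carrier of lactate and other monocarboxylates, had 8, 0 and 9 counts in sperm replicates 2, 3 and 4 and 11 and 5 in testes (edgeR adjusted p 0.400). The remaining 6 Slc5 genes had at most 7 counts in any sample.

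Lactate carriers were dominated by Slc16a3 (chromosome 11, 120948484 to 120959000), which encodes MCT4, the carrier that exports lactate from glycolytic cells. Its level was 560, 865 and 791 ppm in sperm replicates 2, 3 and 4, 543 ppm in replicate 1 and 1110 and 1308 ppm in testes. Every sperm value was lower, by a log2 fold change of -0.72 (SE 0.59), which did not pass the test (edgeR adjusted p 0.371). The neighbouring gene Csnk1d, whose span overlaps it, had 47, 9 and 39 counts in sperm replicates 2, 3 and 4 and 42 and 40 in testes. The mRNA totals were 100027, 33511 and 54337 in these sperm samples and 322625 and 314273 in testes. Relative to them, Csnk1d was higher in each of these sperm samples. Whether either gene drew counts from the other was not tested. Slc16a7, encoding the high-affinity lactate and pyruvate carrier MCT2 of sperm, had no count in any of the 4 sperm samples and 7 and 8 counts in testes (21.7 and 25.5 ppm), too few for the fit. Its pooled testes level was 1.47 times the pooled sperm floor of 15.97 ppm. The Wilson intervals of its testes values began below that floor, at 10.5 and 12.9 ppm in replicates 1 and 2. A lower level in sperm was therefore not shown for Slc16a7. Slc16a1 (MCT1) had 2 counts in sperm replicate 2 and 1 in each testes sample. Slc16a8 (MCT3) had 6, 0, 9 and 0 counts in sperm replicates 1 to 4, beside 17 and 10 in testes. Its log2 fold change of 0.86 (edgeR adjusted p 0.706) came from replicate 3 alone, since replicates 2 and 4 were at 0. Of the 7 Slc16 genes tested edgeR called none, and 1 had an unadjusted p below 0.05, Slc16a4, which limma on log2(FPKM + 1) called lower and DESeq2 did not. In 5 of the 7 (Slc16a3, Slc16a4, Slc16a5, Slc16a9, Slc16a11) all 3 sperm values lay below the testes, as they did in 44.2% of all genes tested.

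**Figure D4:**
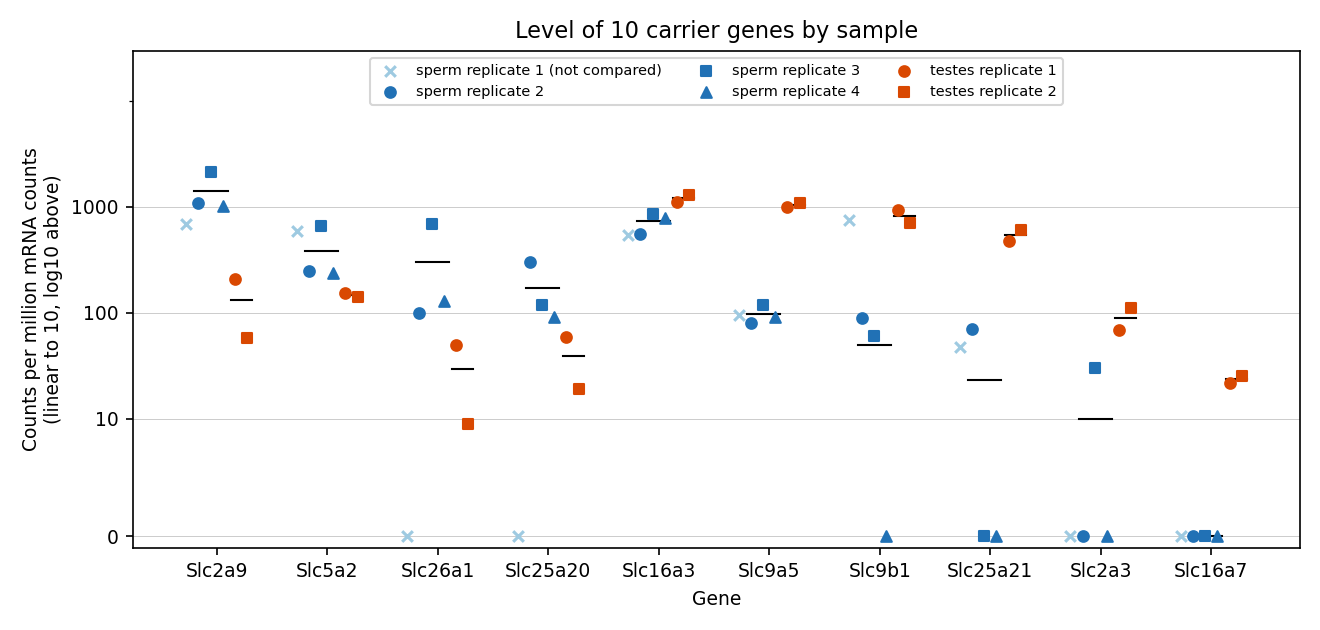
Levels of 10 genes in each sample (ppm, linear to 10 and log10 above), with the group means as black lines and sperm replicate 1 as a cross. Slc2a9, Slc5a2, Slc26a1 and Slc25a20 lie higher in sperm replicates 2 to 4 than in testes. The points of the other 6 lie lower, with Slc9b1 of replicate 1 (755 ppm) among the testes values. For Slc16a7 the testes values (21.7 and 25.5 ppm) lie under the floor of every sperm sample, so a lower level is not shown.

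Bicarbonate and anion exchangers were scarce. Slc26a1 (chromosome 5, 108669878 to 108678380), which encodes the sulfate and oxalate exchanger SAT1, had 99.97, 686 and 129 ppm in sperm replicates 2, 3 and 4, no count in replicate 1 and 49.6 and 9.55 ppm in testes. The log2 fold change was 3.28 (SE 1.31), with an edgeR adjusted p of 0.0445. Leaving out any 1 of the 5 samples ended this call: the edgeR adjusted p was 0.0925, 0.157 and 0.0703 without sperm replicate 2, 3 and 4, and 0.226 and 0.592 without testes replicate 1 and 2. The 10 counts of sperm replicate 2 were given to another of its 3 listed transcripts than the counts of the other samples. Its span overlaps that of Idua, which had 4, 0 and 0 counts in sperm replicates 2, 3 and 4 and 46 and 77 in testes. Slc26a8, which encodes TAT1, an anion transporter of male germ cells, had 1 count in sperm replicate 2 alone and 17 and 11 in testes (edgeR adjusted p 0.110). The adjusted p was 0.0486 in edgeR with all 4 sperm samples, and 0.0121 and 0.0326 in limma on log2(FPKM + 1) and log2(FPKM + 0.1). In the other edgeR and DESeq2 alternatives that gave a value, it was 0.0720 to 0.776. Slc26a6, a chloride/bicarbonate exchanger, had 7, 0 and 2 counts against 16 and 10, a log2 fold change of 0.01 (edgeR adjusted p 0.997), which was -0.29 with TMM scaling. Slc26a3 had 1 count in testes replicate 1 and no other.

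In the Slc4 family, Slc4a8 (chromosome 15, 100761747 to 100823971), a sodium-driven chloride/bicarbonate exchanger, had no count in any sperm sample and 9 and 11 in testes (27.9 and 35.0 ppm). Like Slc2a5 it had exactly 20 counts, all in testes, and a pooled testes level 1.97 times the pooled sperm floor of 15.97 ppm. The Wilson intervals of its testes values began at 14.7 and 19.5 ppm in replicates 1 and 2, again on either side of the floor. The edgeR adjusted p of Slc4a8, 0.0242, rose to 0.118, 0.0697 and 0.0763 without sperm replicate 2, 3 and 4. Slc4a1, the anion exchanger AE1 of red cells, led the family in testes with 24 and 22 counts, and had 5, 0 and 3 in sperm replicates 2, 3 and 4 (edgeR adjusted p 0.683). Slc4a5, a sodium bicarbonate cotransporter, held 66.5% of the family in sperm, but all of it came from 9 counts in replicate 3. Slc4a7, another of that kind, had 2 counts in sperm replicate 2 and 8 and 10 in testes (edgeR adjusted p 0.375), and Slc4a2 (AE2) had 1 count in sperm replicate 2 and 7 and 1 in testes.

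The sodium/proton exchanger genes Slc9a5 and Slc9b1 had the lowest adjusted p among the carriers lower in sperm. Slc9a5 (chromosome 8, 105348156 to 105369881), which encodes NHE5, had 80.0, 119 and 92.0 ppm in sperm replicates 2, 3 and 4, 94.4 ppm in replicate 1 and 1011 and 1088 ppm in testes. The 4 sperm values lay close together and far under the testes, and the log2 fold change was -3.46 (SE 0.80) with an edgeR adjusted p of 4.44e-04. Without testes replicate 2 the edgeR adjusted p was 0.0967 at a log2 fold change of -3.39. In such a fit 1 testes sample is left, which is assumed to vary as the sperm samples do. Plekhg4, whose span it overlaps, was at 0 in all sperm samples and had 15 and 6 counts in testes. Slc9b1, a sodium/proton antiporter of the sperm flagellum, had 90.0, 59.7 and 0 ppm in sperm replicates 2, 3 and 4 and 942 and 706 ppm in testes. Replicate 1 differed from the other sperm samples, with 755 ppm, within the range of the testes. The log2 fold change without replicate 1 was -3.95 (SE 0.92, edgeR adjusted p 4.96e-04). With all 4 sperm samples it was -1.89 and the edgeR adjusted p was 0.0750. With 1 testes sample left, the edgeR adjusted p was 0.192 (without replicate 1) and 0.0525 (without replicate 2), at log2 fold changes of -3.76 and -4.17. Of the meiotic, Sertoli and Leydig markers given above, only Sycp1 and Star were tested. Sycp1 was called lower in sperm (log2 fold change -5.67, edgeR adjusted p 0.0240), with all its counts in testes. Star was not called (log2 fold change -0.08). Each Sertoli marker held at most 19.1 ppm in testes, under the floor of every sperm sample, so a fall could not be seen. Leydig markers other than Star were too sparse for the test, with at most 10 counts in a testes sample. Of the haploid germ cell markers, Prm1, Tnp1, Tnp2 and Akap4 were lower in sperm too (log2 fold changes -4.13, -4.83, -1.90 and -3.60). Odf1 was at 0 there, while Prm2 was not lower (0.73). The part of any of these cells in the difference was not tested.

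Other members of these families were not called. Slc9a4 had 23, 0 and 1 counts in sperm replicates 2, 3 and 4, beside 74 and 73 in testes (edgeR adjusted p 0.420). Slc9a8 (NHE8) had 1, 0 and 5 against 20 and 11 (edgeR adjusted p 0.819). Slc9c1, the sperm-specific exchanger sNHE, had no count in the 4 sperm samples and 1 and 8 in testes. The sodium/calcium exchanger genes Slc8a1 and Slc8a2 were at 0 in sperm. In testes Slc8a1 had 6.33 and 0 counts and Slc8a2 4 and 1. Of the adaptor genes only Slc9a3r1 was seen in sperm: replicates 1 to 4 had 11, 6, 0 and 1 counts, and testes 2 and 1.

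Mitochondrial carriers formed the largest family with 34 genes, of which 22 were listed in at least 1 of sperm replicates 2 to 4 and 32 in testes. Slc25a21 (chromosome 12, 56712634 to 57197472), the carrier of oxoadipate and other oxodicarboxylates, made up 46.2% of the family in testes. It had 70.0, 0 and 0 ppm in sperm replicates 2, 3 and 4, 47.2 ppm in replicate 1 and 474 and 605 ppm in testes, with a log2 fold change of -4.12 (SE 1.11) and an edgeR adjusted p of 0.00415. With 1 testes sample left, the edgeR adjusted p was 0.194 (without replicate 1) and 0.302 (without replicate 2), at log2 fold changes of -4.38 and -4.06. Its span overlaps that of Pax9, which had 5 counts in sperm replicate 4 alone among the sperm samples and 4 and 3 in testes.

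Slc25a20, which carries carnitine and acylcarnitines for fatty acid oxidation, led the family in sperm, at 300, 119 and 92.0 ppm in replicates 2, 3 and 4 as against 58.9 and 19.1 ppm in testes, but had no count in replicate 1. Its log2 fold change of 2.14 (SE 1.42) did not pass the test (edgeR adjusted p 0.256), except without sperm replicate 3 (edgeR adjusted p 0.0286). Slc25a23, an ATP-Mg/phosphate carrier, was likewise higher in replicates 2, 3 and 4 (90.0, 89.5 and 184 ppm against 71.3 and 31.8 ppm, edgeR adjusted p 0.556). Its relative Slc25a25 went the other way, with 49.99, 0 and 147 ppm in sperm and 183 and 309 ppm in testes (edgeR adjusted p 0.265). Slc25a34 had 10, 0 and 12 counts in sperm replicates 2, 3 and 4 and 2 and 3 in testes (edgeR adjusted p 0.0910). The carriers that serve ATP synthesis itself had few counts in either group. Whether these counts reflect their level in the tissue was not tested. Slc25a4, Slc25a5 and Slc25a31, the ADP/ATP carriers, the last of them the germ cell form, had no count in any sperm sample and at most 2 in a testes sample. Slc25a3, the phosphate carrier, had 1 count in sperm replicate 2 and 2 in testes replicate 2. Slc25a10, the dicarboxylate carrier, had 7 counts in sperm replicate 4 and 2 in testes replicate 1.

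Partner genes of these carriers were compared in the same fit. The list held 23 genes for carrier subunits, ion pumps, bicarbonate and proton handling, lactate dehydrogenases, pyruvate carriers, hexokinase and mitochondrial porins. Of these, 19 were in the tables and 10 were tested. All 10 had a negative log2 fold change, so none was called higher, against 6.70% of all genes tested. Called lower were 3 of the 10, against 20.8% of all genes tested. The median log2 fold change was -2.13, against -1.03 for all genes tested. With genes at 0 in a group at their bound, here Vdac2, these medians were -1.72 and -0.98. The count minimum was reached mostly through the deeper testes samples, which favours negative values. Hvcn1, which encodes a voltage-gated proton channel, had 580, 1224 and 368 ppm in sperm replicates 2, 3 and 4 and 944 ppm in replicate 1. The testes held 2576 and 2660 ppm, and the edgeR adjusted p was 0.00450 at a log2 fold change of -1.88 (SE 0.51). Atp1b1, a sodium pump subunit, had 6 counts in sperm replicate 4 alone and 80 and 130 in testes (log2 fold change -3.16, edgeR adjusted p 0.0462). Vdac2, an outer membrane porin, had no count in sperm and 6 and 15 in testes (edgeR adjusted p 0.0241), so it too reached the count minimum through the testes alone. Bsg, the chaperone of MCT1 and MCT4, had 2 counts in sperm replicate 4 and 10 and 8 in testes (edgeR adjusted p 0.452), and Ldhc, the testis lactate dehydrogenase, 4 in that replicate and 43 and 104 in testes (edgeR adjusted p 0.0848). With 9 of the 23 genes listed but under the count minimum and the other 4 in no table, most of the list could not be judged at this depth.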

How the data were processed

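RNA of 4 sperm and 2 testes samples was sequenced after rRNA removal on strand-marked paired-end libraries. The authors removed adaptors and poor reads and aligned the rest with SOAPaligner/SOAP2 per their methods, while the submitters' processing notes name HISAT and mm10. The counting program and its use of strand are not given in the sources used here. The deposited tables hold, per transcript, an estimated count (expected count, not scaled for depth) and FPKM, both made by the authors. A transcript absent from a sample's table was taken as 0.

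Expected counts of RefSeq mRNA (NM) rows were summed per gene symbol over all transcripts. All 95 genes matched the GRCm38.p6 annotation by accession, with the same symbol, and it gave the coordinates. Another 30 genes of these families in that annotation were not in the tables and were not analysed. The NM rows held 9.14 to 12.1% of all counts per sample, and their total was the library size. Sums were rounded, genes with at least 20 counts over the 5 samples were kept, and edgeR's quasi-likelihood test was fitted. Fold changes are on edgeR's log2 scale, and SE was taken from the F statistic. FPKM was summed per gene and used to order genes within a group and, between groups, only in alternatives such as the limma fits. Floors are 3 counts. Wilson 95% intervals were computed for single samples. Over genes, differences between replicates exceeded sampling noise (chi-square per degree of freedom 4.93 to 12.5), so replicates were not merged in the fits. Samples of a group were pooled only for floors and bounds. Labels give no batch.

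The genes described, the families, the partner list and the marker lists were chosen with earlier results of these data known. Named genes were a fixed list of known sperm carriers, every gene called, and per family the gene with the highest mean FPKM in sperm and in testes; of the fixed list 6 were not in the tables, and 1 gene is not reported here. Genes outside that rule that are named (Slc2a4, Slc2a10, Slc5a8, Slc9a4, Slc9a3r1, Slc16a4, Slc16a5, Slc16a9, Slc16a11, Slc25a23, Slc25a25, Slc25a34 and genes of overlapping span) were picked after their values were seen. Alternatives were TMM factors, DESeq2, a library size of all transcript classes, other filters, all 4 sperm samples with and without a replicate block, limma on log2(FPKM + 1) or log2(FPKM + 0.1), single transcripts and leaving out each sample. The fit was tested on simulated counts. The tools were Python 3.11.15 with matplotlib 3.10.9, numpy 2.4.6, pandas 2.3.3 and scipy 1.17.1, and R 4.3.3 with DESeq2 1.42.0, edgeR 4.0.16 and limma 3.58.1.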

Additional observations from a re-analysis of the deposited data

Results flagged for a closer look

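Slc9b1 in sperm replicate 1 stood apart from the other sperm samples. Its level there was 754.9 ppm (32 counts), against 90.0, 59.7 and 0 ppm in replicates 2, 3 and 4. The gap to the nearest sample was 0.881 of the range of the 4 samples, above Dixon's 95% critical value for 4 samples. In all, 16 measures (single genes and families with 20 or more counts in the 4 sperm samples, and the number of genes listed) were examined in this way, and chance flags about 1 in 20. Replicate 1 is the sample the study left out, and with it the adjusted p of Slc9b1 in edgeR was 0.0750.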

How the results depend on the processing

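Depth limits these results: a sperm sample resolves no level under 30.0 to 89.5 ppm, and 63 of the 95 genes had too few counts for the test. RNA quality differed as well. The study reports that sperm RNA was rich in small fragments and lacked the ribosomal RNA peaks seen in testes. The effect of this on the counts was not tested.

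Genes called higher in sperm numbered 2 in the reported fit, 0 with TMM factors and 0 with no filter in edgeR (10 and 11 genes of either direction at an unadjusted p under 0.05), and 1 with DESeq2, with the library size of all classes, with filterByExpr, with all 4 sperm samples, with either limma fit and with single transcripts. Leaving out single samples gave 1 to 3. Genes called lower numbered 5 in the reported fit, 0 with no filter, 3 with filterByExpr, 8 with limma on log2(FPKM + 1), 2 with single transcripts and 0 to 4 when a sample was left out (0 without testes replicate 2, where 3 had an unadjusted p under 0.05). TMM, DESeq2, the library size of all classes and limma on log2(FPKM + 0.1) gave 5, and all 4 sperm samples gave 6. With no filter 14387 genes shared the adjustment. The cause of the other shifts was not tested. With all 4 sperm samples and a replicate block over the numbers in the titles, 1 was called higher and 1 lower (without the block, 1 and 6). Deviations of samples with the same number did not move together (mean r -0.0387 over 4628 genes), and labels do not pair them.

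Over all genes 310 were called higher and 963 lower. The counts were 117 and 927 with TMM, 179 and 841 with DESeq2, 15 and 4 with no filter, 264 and 295 with filterByExpr, 179 and 122 with the block, 121 and 95 with transcripts, and 89 to 532 and 65 to 901 when a sample was left out. The median log2 fold change of all genes was -1.03 as reported, -1.48 with TMM, -2.07 with DESeq2, -1.28 with all classes, -0.16 with filterByExpr and -2.06 to -0.53 when a sample was left out.

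Of the called genes, Slc2a9 and Slc9a5 stayed called in 13 of 15 alternatives each, Slc9b1 and Slc25a21 in 9 of 15, Slc2a5 in 5 of 11, Slc4a8 in 4 of 11 and Slc26a1 in 0 of 15 (adjusted p 0.0691 to 0.869). Without the largest gene, the ratio was 0.120 for Slc2, 0.407 for Slc16, 1.18 for Slc25, 0.360 for Slc26 and 0.244 for Slc4. Without the adaptor genes, an alternative chosen after seeing the data, it was 0.760 for Slc4 and 0.202 for Slc9.

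Directions of 3 genes that were not called turned. Slc16a8 had log2 fold changes of -0.44 (TMM), -0.33 (DESeq2), -0.39 (block), -0.60 and -2.44 (limma with 1 and 0.1) and -6.09 to 1.56 when a sample was left out. Slc26a6 had -0.29 (TMM), -0.94 (DESeq2), -0.23 (all classes), -0.016 (no filter), -0.019 (transcripts), -0.37 (all 4 sperm samples), -0.42 (block, and limma with 1), -1.31 (limma with 0.1) and -0.87 to 0.44 when a sample was left out. Slc9a8 had -2.63 to 0.11 when a sample was left out. DESeq2 gave no adjusted p for Slc2a5 and Slc4a8, and genes under a filter gave no value there.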
